A study of Mus musculus with 27 samples.

Results

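Voltage-gated sodium channels carry the rising phase of the action potential. Each channel is built from 1 large α subunit, which forms the pore, senses voltage and closes itself within milliseconds through an inactivation gate, and from smaller β subunits, single-span membrane proteins that tune gating, help to place the channel in the membrane and act as cell adhesion molecules. In cortex the α subunit genes Scn1a (NaV1.1, best known from fast-spiking interneurons), Scn2a (NaV1.2), Scn8a (NaV1.6, the main channel of the mature axon initial segment) and Scn3a (NaV1.3, mostly embryonic) are all used by neurons.

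The genes described here are these 4 α subunit genes and the β subunit genes Scn2b, Scn3b and Scn4b. They were listed by symbol and not by a cut on their values, but with earlier results of these data known. All 7 were found among the 26264 gene symbols of the deposited table, where they are written scn1a, scn2a, scn3a, scn8a, scn2b, scn3b and scn4b. Genes averaging 1 FPKM or more were tested, 12976 in all, and each of the 7 was among them. FPKM is the number of fragments scaled by the length of the transcript and by the fragments counted in the library, so levels of different genes can be set side by side per length.

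The samples were blocks of brain cortex from 5xFAD mice, a transgenic line that carries human transgenes with familial Alzheimer's disease mutations under the neuronal Thy1 promoter and deposits amyloid. Every mouse, controls included, was 5xFAD and was taken at 16 weeks of age, 24 h after a stereotaxic microinjection of 500 nL into the cortex of 1 hemisphere. The injected solution was vehicle (4 mice), R33 (5 mice) or R55 (5 mice), the last 2 being 10 mM solutions of tool compounds directed at the retromer, the complex that returns membrane proteins from endosomes. The injected and the contralateral hemisphere were sequenced as separate libraries, 27 in all, and for 1 R33 mouse (AE) only the injected side was used. There was no group without the transgenes and no uninjected mouse.

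Libraries held 15932196 to 38077026 fragments on genes (median 27441308). The blocks held neurons and glia. Summed levels were 1763 to 2895 FPKM for 5 neuron markers (Rbfox3, Snap25, Syt1, Map2 and Tubb3), 428 to 883 FPKM for 6 markers of cortical excitatory neurons, 478 to 2360 FPKM for 5 oligodendrocyte markers and 253 to 947.5 FPKM for 5 astrocyte markers. A few libraries stood apart. The R33 injected library of mouse AD had the lowest mean correlation with the other libraries (0.962), followed by the vehicle contralateral library of mouse J (0.973). The injected libraries of mouse L (vehicle) and mouse N (R33) held 96.0 and 163 FPKM of 7 striatal neuron markers in sum, against a median of 22.96 over all libraries. The larger shifts of the 7 genes when these libraries were left out are given beside their values.

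Of the 7 genes, 3 of the 4 α genes lie in 1 cluster on chromosome 2. On GRCm39, with the GENCODE annotation, Scn3a spans chr2:65287462-65397971 on the minus strand, Scn2a spans chr2:65451102-65597795 on the plus strand and Scn1a spans chr2:66101122-66271572 on the minus strand. Scn8a stands alone at chr15:100767739-100943819 (plus strand). The 3 β genes are on chromosome 9, all on the plus strand: Scn3b at chr9:40179378-40203052, Scn2b at chr9:45029080-45041368 and Scn4b at chr9:45049595-45065452. Scn2b and Scn4b are neighbours, 8226 bp apart.

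The α genes are close copies of each other, which matters for how reads can be assigned. Over the coding sequences of the annotated canonical transcripts, the longest run of bases shared exactly was 188 between Scn1a and Scn2a and 143 between Scn3a and either of them, but 47 or less between Scn8a and the others. Of all windows of 50 bases in the Scn3a coding sequence, 9.13% occur exactly in Scn2a and 4.96% in Scn1a, whereas Scn8a shared no such window with the other α genes. The β genes shared no run longer than 16 bases with any other of the 7. How reads that fit 2 genes were counted is not given in the sources used here, so levels of Scn1a, Scn2a and Scn3a hold this uncertainty and those of Scn8a and the β genes much less of it. Every one of the 7 genes is also overlapped by at least 1 gene model on the opposite strand. The library kit keeps the strand, but whether counting used it is not given.

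Scn2b was the most abundant of the 7 genes and the most even, and Scn3a the least abundant. The order of mean levels over the 27 libraries was Scn2b (78.8 ± 6.81 FPKM, SD), Scn8a (36.3 ± 6.65), Scn2a (35.0 ± 7.09), Scn4b (31.2 ± 18.5), Scn3b (29.8 ± 14.7), Scn1a (22.2 ± 6.15) and Scn3a (2.95 ± 0.714). Scn2b was the highest of the 7 in 26 libraries and Scn3a the lowest in 27. The places between were less settled. Scn8a was above Scn2a in 17 of 27 libraries, and Scn4b was above Scn3b in 16, so these neighbours did not differ beyond their spread. Scn1a, by contrast, was below Scn2a and below Scn8a in all 27 libraries. Even the scarcest gene, Scn3a, was covered by 426 to 1387 fragments per library.

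**Figure D1:**
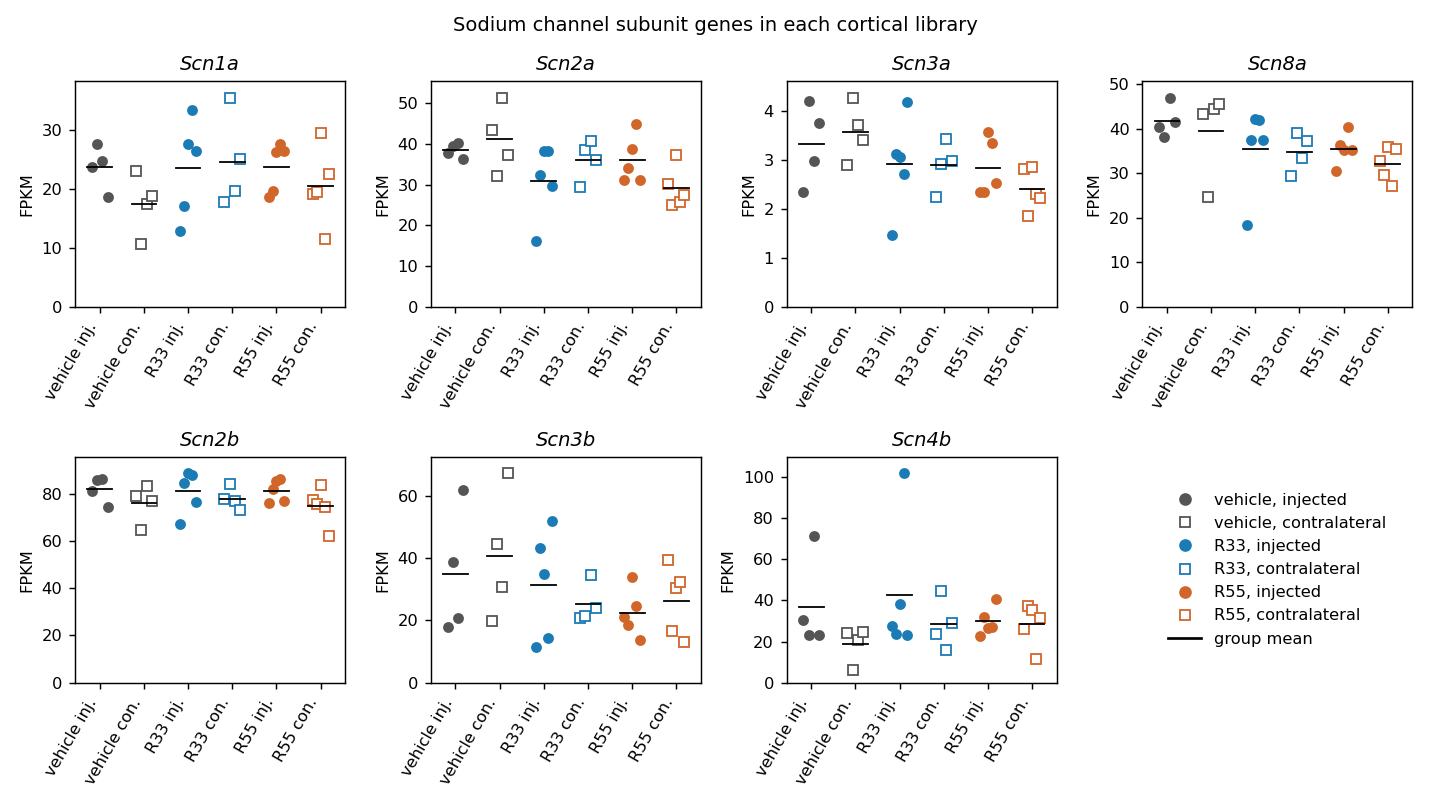
Level of each of the 7 sodium channel genes in each library (vertical axis, FPKM, from 0), by treatment and hemisphere (inj., injected; con., contralateral), with 1 point per library and a bar at the group mean. Scn2b stays between 62.2 and 88.6 FPKM, while Scn4b runs from 5.92 to 102 FPKM with single libraries far above or below their groups.

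Other genes of the family put these levels in context. Nalcn, the sodium leak channel, had a median of 14.2 FPKM. Scn4a (the channel of skeletal muscle), Scn7a, and Scn9a, Scn10a and Scn11a (channels of sensory neurons) had mean levels of 0.00634 to 0.367 FPKM and were below the filter.

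The 7 genes differed widely in how much they varied from library to library. On the log2(FPKM + 1) scale, the SD over the 27 libraries was 0.72 for Scn4b, 0.66 for Scn3b, 0.41 for Scn1a, 0.31 for Scn2a, 0.29 for Scn8a, 0.27 for Scn3a and 0.13 for Scn2b, beside a median of 0.17 over all tested genes. Scn4b varied more than 99.3% of tested genes and Scn3b more than 99.1%, whereas Scn2b varied more than 23.6%. The 2 neighbours on chromosome 9, Scn2b and Scn4b, thus stood at opposite ends of the range.

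The first question was whether treatment with R55 or R33 moved these genes away from vehicle. None of the 7 passed the test in any comparison. For R55 against vehicle, limma on log2(FPKM + 1) with hemisphere as a covariate gave 0 of 7 members at a Benjamini-Hochberg adjusted p under 0.05, where 0.00771% of all tested genes passed. At an unadjusted p under 0.05, 2 of the 7 were lower in R55 (Scn2a and Scn3a), and 3.74% of all tested genes were lower at that level. Scn3a, Scn2a, Scn8a and Scn3b had negative log2 fold changes and Scn1a and Scn4b positive ones, with a median over the 7 of -0.24 beside 0.03 over all tested genes.

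Scn3a had the lowest unadjusted p. Its level per mouse, as the mean of the hemispheres, was 2.62, 3.35, 3.57 and 4.23 FPKM in the vehicle mice and 2.09, 2.37, 2.57, 2.83 and 3.21 FPKM in the R55 mice. The groups overlapped through 1 vehicle mouse (AH) whose level lay among those of the R55 mice. The log2 fold change was -0.30 ± 0.11 (SE; 95% confidence interval -0.53 to -0.06), with an adjusted p of 0.552 by limma.

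For Scn2a, the channel of early axons and of excitatory neurons, the vehicle mice had 35.9, 36.9, 40.7 and 45.8 FPKM and the R55 mice 29.4, 29.6, 30.6, 35.4 and 38.1 FPKM. The R55 mouse P lay within the vehicle range and the other 4 below it. The log2 fold change was -0.29 ± 0.14 (95% interval -0.57 to -0.01), with an adjusted p of 0.584 by limma. Here both sides of 1 mouse enter as independent libraries. With 1 value per mouse the interval was -0.59 to 0.01 and with the correlation within mice modelled -0.63 to 0.05, so that both held 0. For Scn3a these intervals were -0.59 to -0.01 and -0.57 to -0.03.

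Scn8a, the channel of the mature initial segment, had 31.4, 41.8, 43.6 and 45.8 FPKM in the vehicle mice and a narrow 31.7 to 35.5 FPKM in the R55 mice. The groups overlapped only through vehicle mouse J, which had the low contralateral library named above. The log2 fold change was -0.24 ± 0.13 (95% interval -0.50 to 0.02) with all libraries and -0.34 ± 0.12 without that library, with adjusted p values of 0.594 and 0.396 by limma. Without it, 3 of the 7 members were lower at an unadjusted p under 0.05, beside 4.08% of all tested genes. The count was also 3, beside 5.06%, without the R33 injected library of mouse AD, which takes part in this comparison only through the estimate of the spread.

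Among the β genes, Scn3b had the largest log2 fold change of R55 against vehicle, -0.54 ± 0.29, and an interval that reached from -1.14 to 0.06 (adjusted p = 0.601 by limma). Without vehicle mouse M, whose levels are given below, it was -0.24 ± 0.29. Scn4b had 0.23 ± 0.31 (-0.40 to 0.87), and Scn1a, the remaining α gene, 0.10 ± 0.18 (-0.28 to 0.48). Without the contralateral library of mouse J these 2 values were -0.003 ± 0.28 and -0.01 ± 0.18. Scn2b was the tightest, with -0.02 ± 0.06, and its interval of -0.14 to 0.11 was the narrowest of the 7.

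The 4 α genes are long transcripts of 8320 to 11432 bp as the authors counted them, and length moved with treatment over all genes. The 750 tested genes longer than 8000 bp had a median log2 fold change of -0.14 for R55 against vehicle. When the trend of each library on transcript length was removed, Scn3a had -0.16 ± 0.08, Scn2a -0.16 ± 0.10 and Scn8a -0.07 ± 0.09, while Scn1a moved away from 0, from 0.10 to 0.21 ± 0.15. The median over the 7 was -0.07, and none of the 7 was under an unadjusted p of 0.05, beside 3.7% of all tested genes that were lower at that level. Scn3b, a shorter transcript of 4241 bp, kept -0.54 ± 0.28. The part of length in the α gene values was not tested.

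The mice carried single-letter labels (9 mice) or double-letter labels (5 mice), and what the labels stand for is not given. Between 3 R55 and 3 vehicle mice with single letters, the difference of mean log2 values was -0.32 for Scn3a, -0.21 for Scn2a, -0.18 for Scn8a and -0.80 for Scn3b. Between the 2 R55 mice and the 1 vehicle mouse with double letters it was -0.12, -0.43, -0.37 and 0.25. Scn3b thus had opposite signs in the 2 sets, and the 3 α genes the same sign, with no test run on the second set alone.

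For R33 the log2 fold changes against vehicle were -0.28 ± 0.14 for Scn2a, -0.22 ± 0.13 for Scn8a, -0.20 ± 0.12 for Scn3a, -0.37 ± 0.30 for Scn3b, 0.38 ± 0.32 for Scn4b, 0.18 ± 0.19 for Scn1a and 0.01 ± 0.06 for Scn2b. None passed (0 of 7, beside 0.0% of all tested genes), and none was under an unadjusted p of 0.05, where 5.87% of all tested genes were. These values depended on single libraries. Without the R33 injected library of mouse AD they were -0.16 ± 0.10 for Scn2a, -0.11 ± 0.10 for Scn8a, -0.12 ± 0.10 for Scn3a and -0.24 ± 0.29 for Scn3b, and the median over the 7 went from -0.20 to -0.11. Without the vehicle contralateral library of mouse J, Scn8a had -0.31 ± 0.12, Scn4b 0.15 ± 0.29 and Scn1a 0.07 ± 0.18. Without vehicle mouse M, Scn3b had -0.063. With each mouse left out in turn, Scn2a ran from -0.362 to -0.131, Scn8a from -0.339 to -0.068, Scn3a from -0.296 to -0.078 and Scn4b from 0.08 to 0.617.

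The comparisons of R55 and of R33 with vehicle share the vehicle mice. In the direct comparison of R55 with R33 these mice enter through the spread and the hemisphere term of the fit. It gave log2 fold changes of -0.17 ± 0.28 for Scn3b, -0.15 ± 0.30 for Scn4b and between -0.10 and -0.01 for the other 5. None of the 7 passed (0 of 7, beside 0.0% of all tested genes), and none was under an unadjusted p of 0.05, where 1.15% of all tested genes were. The 95% intervals of this difference were -0.28 to 0.26 for Scn2a and -0.15 to 0.10 for Scn2b, but -0.76 to 0.41 for Scn3b and -0.76 to 0.47 for Scn4b, so the data bounded a difference between the compounds most closely for Scn2b. Without the R33 injected library of mouse AD the log2 fold changes were -0.18 ± 0.10 for Scn3a, -0.19 ± 0.16 for Scn1a, -0.14 ± 0.09 for Scn8a, -0.13 ± 0.10 for Scn2a and -0.30 ± 0.28 for Scn3b, and the median over the 7 went from -0.08 to -0.18.

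**Figure D2:**
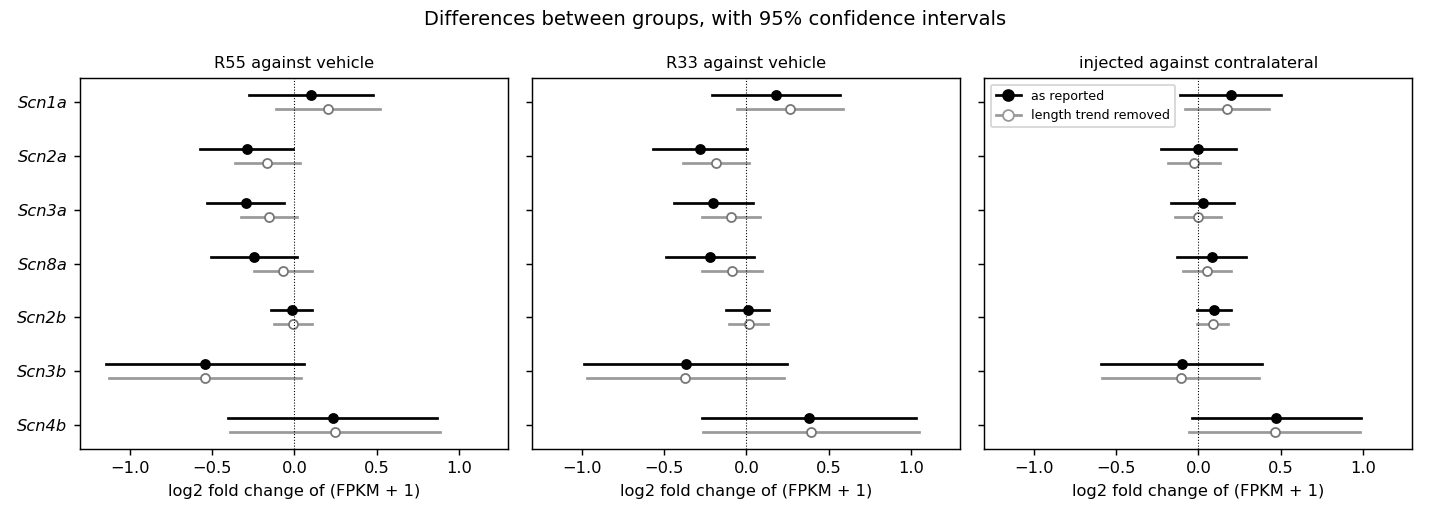
Log2 fold change of (FPKM + 1) for each gene (horizontal axis) in 3 comparisons, with 95% confidence intervals as bars. Filled points are the values as reported and open points those after the length trend of each library was removed, which in R55 against vehicle moves the α genes Scn2a, Scn3a and Scn8a towards 0 and Scn1a away from it (0.10 to 0.21) and leaves Scn3b at -0.54.

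Each hemisphere was also fitted alone, to ask whether the injected side, where the compound was delivered, differed from the other. The larger differences were on the contralateral side. There Scn3a was 2.89, 3.40, 3.72 and 4.26 FPKM in the vehicle libraries and 1.84, 2.21, 2.30, 2.80 and 2.86 FPKM in the R55 libraries. The groups did not overlap, which held for 1.36% of all tested genes in the lower direction. The log2 fold change was -0.42 ± 0.12, with an adjusted p of 0.366 by limma. Contralateral Scn2a was 32.3, 37.4, 43.4 and 51.4 FPKM with vehicle and 25.1, 25.8, 27.5, 30.1 and 37.3 FPKM with R55. The R55 library of mouse P lay within the vehicle range and the other 4 below it, for a log2 fold change of -0.48 ± 0.14 and an adjusted p of 0.366 by limma. Without the contralateral library of mouse J, Scn2a had -0.58 ± 0.14 and Scn8a, at -0.26 ± 0.16 with it, had -0.46 ± 0.11, both with an adjusted p of 0.12 by limma, the lowest of any member in any fit. With all libraries, Scn3a and Scn2a were the members at an unadjusted p under 0.05 on that side, where 4.74% of all tested genes were lower at that level and 0.0% passed the adjusted test. With the length trend of each library removed, contralateral Scn2a had -0.28 ± 0.11, Scn3a -0.21 ± 0.11 and Scn8a 0.003 ± 0.13. The median over the 7 on that side then went from -0.26 to -0.006. R33 against vehicle, fitted on each hemisphere alone, gave no call among the 7 either. On the injected side its median over the 7 was -0.16 with 6 genes negative, and 0.04 with 3 negative without the R33 injected library of mouse AD.

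On the injected side the log2 fold changes of R55 against vehicle were -0.10 ± 0.20 for Scn2a and -0.17 ± 0.19 for Scn3a, with adjusted p values of 1.0 by limma for both, and none of the 7 was under an unadjusted p of 0.05, where 1.09% of all tested genes were. The test of the difference between the sides, the interaction of R55 with hemisphere, gave 0.37 ± 0.26 for Scn2a, 0.26 ± 0.23 for Scn3a and -0.79 ± 0.62 for Scn4b, each with an adjusted p of 0.999 by limma. At an unadjusted p under 0.05 there was none of the 7 and 1.84% of all tested genes. A difference of the R55 effect between hemispheres was therefore not shown for any of them.

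The comparison of the injected with the contralateral hemisphere over all treatments asked what the injection itself did. No member passed (0 of 7, beside 0.0% of all tested genes), and none was under an unadjusted p of 0.05, where 3.47% of all tested genes were. Scn4b had the largest log2 fold change, 0.47 ± 0.25 (95% interval -0.04 to 0.99), followed by Scn1a with 0.20 ± 0.15 and Scn2b with 0.10 ± 0.05, and the other 4 lay between -0.10 and 0.08. With each mouse as a block over the 13 mice that had both sides, Scn4b had 0.52 ± 0.24 and was the 1 member under an unadjusted p of 0.05, with an adjusted p of 0.802 by limma, where 3.11% of all tested genes were higher at that level.

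The 13 pairs show that the Scn4b value rested on a few mice. In mouse N (R33) the injected side held 102 FPKM of Scn4b and the contralateral side 15.97. In mouse L (vehicle) the values were 71.2 and 20.6 FPKM, and in mouse J (vehicle) 23.1 and 5.92 FPKM. In mouse Q (R55) they were 27.2 and 11.3 FPKM. In the other 9 mice the 2 sides differed by at most 0.41 on the log2 scale, and over all 13 the injected side was higher in 7 and lower in 6. Without the injected libraries of mice L and N the log2 fold change of the hemispheres was 0.23 ± 0.21, and without the contralateral library of mouse J it was 0.33 ± 0.22. Without the R33 injected library of mouse AD it was 0.50 ± 0.26, with 0.12 ± 0.05 for Scn2b and 0.15 ± 0.08 for Scn8a.

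**Figure D3:**
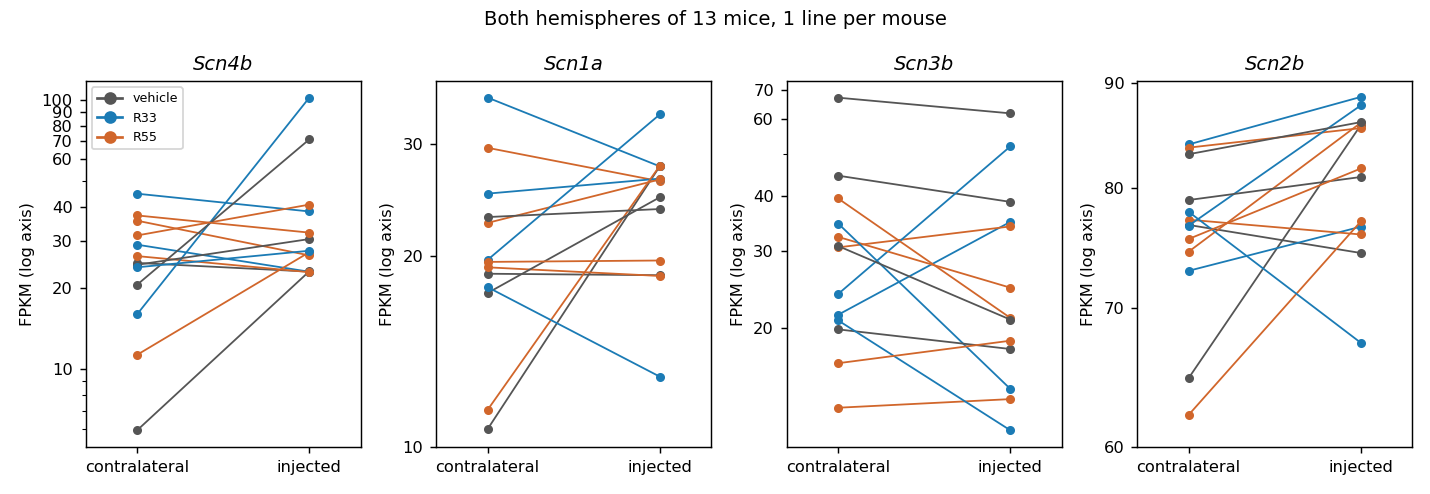
Level of Scn4b, Scn1a, Scn3b and Scn2b in the contralateral and the injected hemisphere of 13 mice (vertical axes, FPKM on a log axis), with 1 line per mouse coloured by treatment. For Scn4b 4 steep lines, of mice N, L, J and Q, stand among flat ones, while Scn2b stays within 62.2 and 88.6 FPKM.

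Scn1a followed the same libraries at its low end. It was 27.7 FPKM on the injected side of mouse J and 10.7 on the contralateral side, and 27.7 and 11.4 FPKM in mouse Q. The contralateral libraries of these 2 mice were the lowest of all 27 for Scn1a and also for Scn4b. At the high end they were alike in part. Mouse N had 33.4 FPKM of Scn1a on the injected side and 19.7 on the other. The highest Scn1a level, 35.5 FPKM, was in the contralateral library of mouse K (R33), which held 44.8 FPKM of Scn4b. The injected library of mouse L, at 71.2 FPKM of Scn4b, held 24.7 FPKM of Scn1a. Scn2b was higher on the injected side in 10 of 13 mice, by at most 0.40 on the log2 scale.

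The 2 injected libraries with the highest Scn4b were those with the highest levels of striatal neuron markers. Scn4b is abundant in medium spiny neurons of the striatum, which lies beneath the cortex. In the injected library of mouse N, the adenosine receptor gene Adora2a was 22.3 FPKM and the dopamine receptor genes Drd1 and Drd2 were 12.8 and 12.9 FPKM. In that of mouse L they were 11.5, 8.54 and 7.93 FPKM. The contralateral libraries of the same mice had 1.73 and 0.909 FPKM of Adora2a and 0.936 and 0.542 FPKM of Drd2. The summed level of the 7 striatal markers was 13.5 to 41.3 FPKM in the other 25 libraries, and none of the 7 was at 0 in all libraries of any group. Over the 27 libraries Pearson's r between Scn4b and this sum, both as log2 values, was 0.49, and without the 2 libraries farthest from the median, those of mice N and L, it was -0.10. The relation thus rested on these 2 libraries, and the low Scn4b of mice J and Q did not follow it, with 34.0 and 27.8 FPKM of the markers. The part of striatal RNA in these values was not tested, and more cells of a type cannot be told apart from more RNA per cell in bulk tissue.

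Scn3b moved with another set of markers. It was highest on both sides of vehicle mouse M, at 62.0 FPKM injected and 67.3 contralateral, and next highest in the injected library of R33 mouse O, at 52.0 FPKM. The lowest levels were 11.6 FPKM in the injected library of mouse AD, and 13.1 and 13.7 FPKM on the 2 sides of R55 mouse R. A list of 8 hippocampal neuron markers, drawn up after the Scn3b values had been seen (Prox1, Wfs1, Fibcd1, Spink8, Lct, Dsp, C1ql2 and Tdo2), summed to 165 and 169.5 FPKM in mouse M, to 139 FPKM in the injected library of mouse O and to 27.6 FPKM in that of mouse AD. Wfs1 took the largest share of this sum and is expressed in cortex as well. Among more restricted markers, Fibcd1 and Spink8, genes of CA1 pyramidal cells, ran the same way in mouse M. They were 28.6 and 30.9 FPKM on its injected side, against medians of 4.63 and 2.90 over all libraries. C1ql2 was 25.1 FPKM on that side but 4.80 FPKM on the contralateral side, where Scn3b was highest, against a median of 5.18.

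Over the 27 libraries, Pearson's r between Scn3b and the hippocampal sum as log2 values was 0.96, Spearman's rho was 0.96, and r without the 2 farthest libraries was 0.95. This is a description over libraries that share mice and depth. The sum spanned 36.9 to 169.5 FPKM in the vehicle libraries and 27.6 to 139 in the R33 libraries. In the R55 libraries it spanned 34.5 to 104, so the groups overlapped. Their upper ends differed in the same order as those of Scn3b, but that of vehicle was mouse M alone. The next vehicle library, contralateral J, had 107 FPKM of the sum and 44.6 FPKM of Scn3b. Both were below the R33 injected library of mouse O. The part of hippocampal RNA in the negative Scn3b values of R55 and R33 was not tested. Scn3a had r of 0.70 with this sum, and the remaining 5 genes lay between -0.46 and 0.19.

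**Figure D4:**
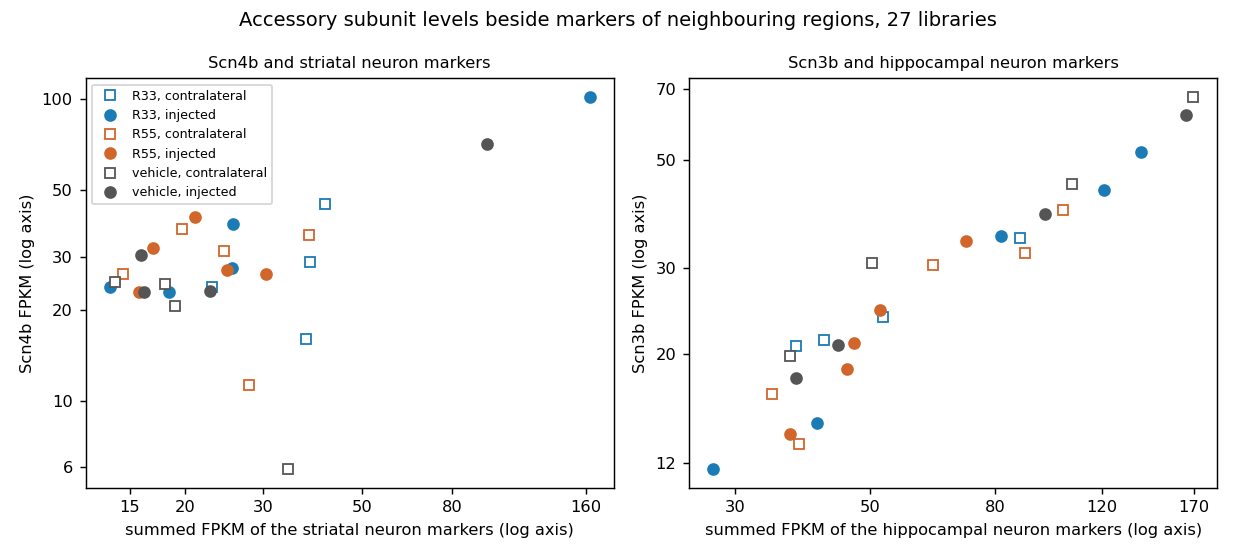
Left, Scn4b level against the summed level of 7 striatal neuron markers, and right, Scn3b level against that of 8 hippocampal neuron markers, both in FPKM on log axes, with 1 point per library. The 2 injected libraries of mice N and L stand alone at the upper right for Scn4b, while for Scn3b the 27 points lie along 1 band (r = 0.96).

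Across the 27 libraries the 7 genes did not vary as 1 block. Scn1a and Scn4b went together (Pearson's r of log2 values 0.73), and so did Scn3a and Scn3b (0.77), while Scn3b and Scn4b ran against each other (-0.49). These 3 values were 0.78, 0.80 and -0.54 after the length trend of each library was removed. Scn2a and Scn8a had the highest r of all pairs, 0.83, but this was 0.58 without the length trend, and Scn2a with Scn3a moved from 0.66 to 0.22. These relations among the long α transcripts thus moved with the length trend, while the 3 values before them moved little. Libraries of 1 mouse share an animal, so the 27 points are not independent and no p is given.

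**Figure D5:**
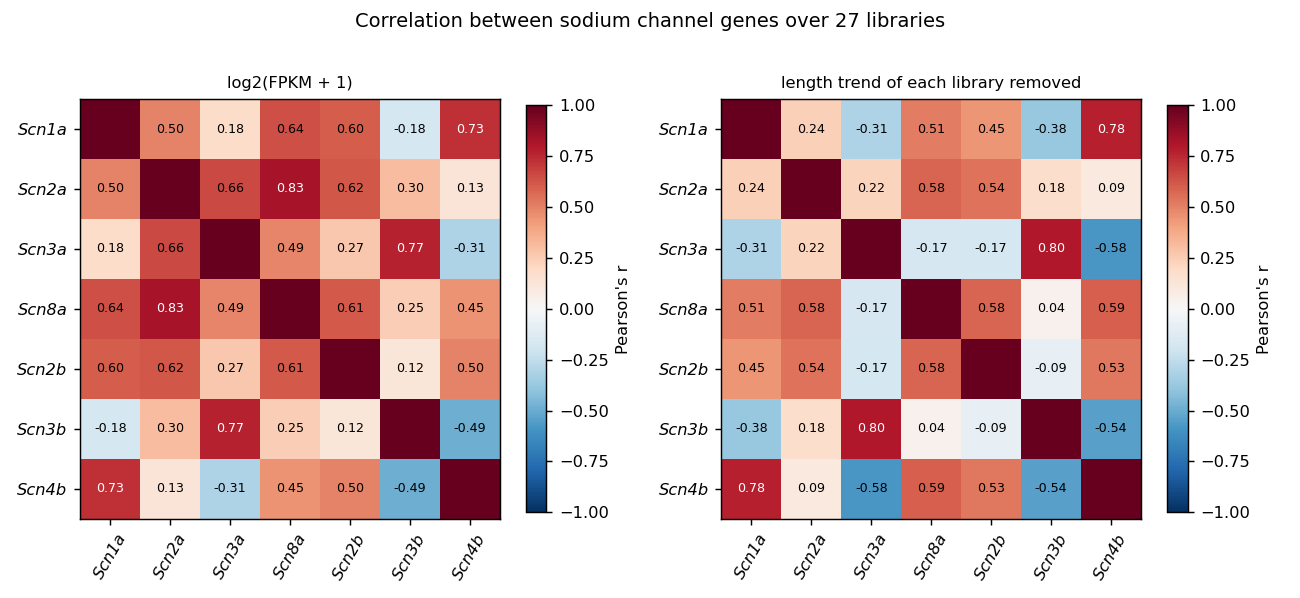
Pearson's r between the 7 genes over 27 libraries, on log2(FPKM + 1) at the left and after the length trend of each library was removed at the right, with red for positive and blue for negative values. The pairs Scn1a with Scn4b (0.73 and 0.78) and Scn3a with Scn3b (0.77 and 0.80) stay red in both, while Scn2a with Scn3a fades from 0.66 to 0.22.

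The genes most like each member across the 27 libraries, the 3 with the highest Pearson's r among all tested genes, differed from member to member. Scn3b had the closest matches: Gria1, an AMPA receptor subunit (r = 0.98), Gabra5, a GABA-A receptor subunit (0.96), and Slit1, an axon guidance ligand (0.96), and their values were 0.96 or more also with the length trend removed. Scn4b was most like Rasd2, a small GTPase abundant in striatum (0.90), Mtus2 (0.85) and Abcd2, a peroxisomal transporter (0.85). Scn1a was most like Kcnc1, the potassium channel KV3.1 of fast-spiking neurons (0.88), Cdk7, a kinase of transcription and cell cycle (0.88), and Nr3c1, the glucocorticoid receptor (0.87). With the summed level of the 6 interneuron markers, as log2 values, Scn1a had r of -0.405. The other α genes were more negative, at -0.524 for Scn2a, -0.562 for Scn8a and -0.563 for Scn3a. The β genes lay between -0.248 and -0.021.

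Scn8a was most like Pde4dip (0.94), Atp2a2, the calcium pump of the endoplasmic reticulum (0.93), and Sorl1, an endosomal sorting receptor (0.93). Scn2a was most like Wdr7 (0.95), Marchf6, a ubiquitin ligase (0.94), and Pgm2l1 (0.94), and Scn3a was most like Dzip3 (0.93), Grm5, a metabotropic glutamate receptor (0.92), and Csmd3 (0.92). All 9 are longer than the median tested transcript of 3149 bp, and r for Scn8a with Pde4dip, a transcript of 12940 bp, was 0.57 once the length trend was removed. Scn2b, with its small spread, had lower values, at 0.81 for Rtn3, 0.80 for Rnf145 and 0.80 for Nceh1. These are the highest of 12975 values for each gene and are given as a description.

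The proteins that hold sodium channels at the axon initial segment and modulate them formed a list of 15 genes, all of which were tested and none of which passed in R55 against vehicle, R33 against vehicle or injected against contralateral. For R55 against vehicle 13 of the 15 had a negative log2 fold change, with a median of -0.14 beside 0.03 over all tested genes. The 750 tested genes longer than 8000 bp also had a median of -0.14, and the part of transcript length in these 15 values was not tested. At an unadjusted p under 0.05, 2 of the 15 were lower, and 3.74% of all tested genes were lower at that level. Among these 2 was Kcnq3 (-0.32 ± 0.13), a subunit of the M-type potassium channel that shares the ankyrin anchor with sodium channels, with an adjusted p of 0.557 by limma. The anchor and adhesion genes had -0.12 ± 0.09 for Ank3 (ankyrin-G), 0.03 ± 0.05 for Sptbn4 (βIV spectrin), -0.25 ± 0.12 for Nfasc (neurofascin), -0.19 ± 0.12 for Nrcam, -0.14 ± 0.12 for Cntn1 (contactin 1) and -0.32 ± 0.16 for Cntnap2.

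The fibroblast growth factor homologous factors, which bind the tail of the α subunit, had -0.08 ± 0.14 for Fgf11, 0.11 ± 0.08 for Fgf12, -0.16 ± 0.10 for Fgf13 and -0.02 ± 0.11 for Fgf14. The regulators of channel turnover and processing had -0.17 ± 0.09 for Nedd4l, a ubiquitin ligase, -0.02 ± 0.05 for Fyn, a kinase, and -0.07 ± 0.08 for Bace1, the β-secretase that cleaves both APP and the β subunits. Beside these, Nalcn had -0.24 ± 0.12 in the same comparison and did not pass. For R33 against vehicle 12 of the 15 had a negative log2 fold change, with a median of -0.08. Again 2 of the 15, Nedd4l among them, were under an unadjusted p of 0.05, where 5.87% of all tested genes were. For injected against contralateral none of the 15 was, beside 3.47% of all tested genes.

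Markers of neurons were read in the same fit. The 5 neuron markers had a median log2 fold change of 0.10 for R55 against vehicle, with none under an unadjusted p of 0.05. Of these 5, 2 were negative, Map2 (-0.23 ± 0.12) and Syt1 (-0.05 ± 0.10). The 6 excitatory neuron markers had a median of 0.00. These 6 went both ways, and 1 of them was lower at an unadjusted p under 0.05, Bcl11b, a transcription factor of deep-layer projection neurons (-0.55 ± 0.23, adjusted p = 0.557 by limma), beside 3.74% of all tested genes. Of the 6 interneuron markers 2 were higher at an unadjusted p under 0.05, where 4.71% of all tested genes were higher at that level. They were Pvalb, the calcium buffer of fast-spiking interneurons (0.47 ± 0.18), and Vip (0.35 ± 0.13), each with an adjusted p of 0.552 by limma. The median over these 6 was 0.09, with 1 of them, Gad2, negative (-0.11 ± 0.13). The summed interneuron markers were 413 to 549 FPKM in the vehicle libraries and 366 to 664 FPKM in the R55 libraries.

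Markers of glia were read as well. All 5 astrocyte markers and all 5 oligodendrocyte markers had positive log2 fold changes of R55 against vehicle, with medians of 0.13 and 0.15. All 3 oligodendrocyte precursor markers were negative, with a median of -0.06. Of the 5 microglia markers 1 was negative, with a median of 0.11. Of the 10 astrocyte and oligodendrocyte markers, 1 was under an unadjusted p of 0.05, where 4.71% of all tested genes were higher at that level. It was Aldh1l1, an astrocyte enzyme of folate metabolism (0.38 ± 0.14, adjusted p = 0.552 by limma). On the contralateral side, where Scn2a and Scn3a had their larger differences, all 5 oligodendrocyte markers were again positive, with a median of 0.54, and so were all 5 astrocyte markers, with a median of 0.27. There the 5 neuron markers had a median of 0.16 with 2 negative, and the 6 interneuron markers a median of 0.15 with 1 negative. The 6 excitatory neuron markers had a median of -0.065 with 3 negative. At an unadjusted p under 0.05 on that side, 1 neuron marker was lower, and 1 interneuron and 1 astrocyte marker were higher. Of all 12976 tested genes, 615 were lower and 875 higher at that level there. On the injected side all 5 oligodendrocyte markers were negative, with a median of -0.23. The summed oligodendrocyte markers were 478 to 2072 FPKM in the contralateral vehicle libraries and 1103 to 1840 FPKM in the contralateral R55 libraries, and the summed astrocyte markers 253 to 722 and 431 to 627 FPKM. The groups overlapped in both sums, and no marker was at 0. The part of neurons and glia in the sodium channel values was not tested.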

How the data were processed

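Total RNA from cortex blocks was made into stranded mRNA libraries, sequenced as paired ends and aligned with HISAT2 to the GRCm39 build by the authors. The deposited values are FPKM, in 1 long table of 32 libraries, of which 27 were used and 5 were not used here. The counting tool and annotation are not given in the sources used here. The authors tested differences with DESeq2, which needs counts. Here 27 repeated header lines were dropped. For 100.0% of the 22013 genes with a value, the FPKM were whole multiples of 1 fragment (tolerance 0.01), so the fragments and lengths the authors used were recovered (15932196 to 38077026 fragments per library).

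The 12976 genes averaging 1 FPKM or more were tested on log2(FPKM + 1) with limma 3.58.1 in R 4.3.3, with treatment and hemisphere as terms, empirical Bayes moderation with an intensity trend, two-sided tests and p-values adjusted after Benjamini-Hochberg over the whole table (call at 0.05). Libraries of 1 mouse count as separate there. p-values measure the spread between these libraries. The same mouse label pairs the hemispheres: over 13 pairs the deviations from group means had a mean correlation of 0.394 (-0.079 to 0.648). Fits on each hemisphere and interactions were made alike. The length trend was removed by lowess (span 0.3). Code was tested on simulated data.

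Members and gene lists were chosen with earlier results of these data known, and the hippocampal list and the omission of 4 libraries after values had been seen. Named genes are the 7 members, the genes of the 2 channel lists and the 3 genes most like each member, and markers of other cells and regions are named where their values stand beside a result. Some single genes are not reported here. Coding sequences were compared on GRCm39 by the coding exons of the GENCODE canonical transcripts. Figures were drawn with matplotlib 3.10.9, and tables and correlations were computed in Python 3.11.15 (scipy 1.17.1, pandas 2.3.3, numpy 2.4.6). Alternatives covered scaling, filters, the pseudocount, voom on recovered fragments, the mouse as a block or a modelled correlation, 1 value per mouse, the label series, and each mouse left out.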

Additional observations from a re-analysis of the deposited data

Results flagged for a closer look

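Single libraries stood apart from the others of their group in 4 cases, by Dixon's test at the 95% level over 42 groups of 4 or 5 libraries, of which chance flags about 1 in 20. Scn8a was 18.4 FPKM in the R33 injected library of mouse AD and 24.7 FPKM in the vehicle contralateral library of mouse J, both below their groups. Scn4b was 102 FPKM in the R33 injected library of mouse N and 71.2 FPKM in the vehicle injected library of mouse L, both above their groups. These are the libraries described above as least like the others or as highest in striatal markers.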

How the results depend on the processing

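In none of 246 fits, every alternative and every omitted mouse included, did any of the 7 genes reach an adjusted p under 0.05, and the smallest adjusted p of a member in any fit was 0.12. The order of the mean levels was the same with median-of-ratios size factors. Counts of members at an unadjusted p under 0.05 did depend on the setting. Numbers in parentheses are how many of all 12976 tested genes were at that level in the same fit or fits, in either direction. For R55 against vehicle the count was 2 (1096). It was 1 with 1 value per mouse (440), 1 with a modelled correlation within mice (519) and 1 with the label series as a covariate (985). Removing the length trend gave 0 (840). Leaving out mice in turn gave 0 to 3 (609 to 1674). Among these fits the count was 0 without mouse AB (755), 1 without mouse AA (881) and 1 without mouse R (1079). On the contralateral side alone it was 1 with the length trend removed (809). On the injected side alone it was 1 in place of 0 without the R33 injected library of mouse AD (309), with a range of 0 to 1 over omitted mice (64 to 328). For R33 against vehicle it was 1 with single-letter mice alone (503), 2 without the contralateral library of mouse J (1273) and 0 to 2 over omitted mice (478 to 1655). For R55 against R33 it was 0 to 1 over omitted mice (82 to 1338). For the hemispheres it was 1 with the mouse as a replicate block (795), also with the length trend removed (1131), and 2 with the correlation modelled (896). It was 3 in single-letter mice (482), 1 without the R33 injected library of mouse AD (927) and 0 to 1 over omitted mice (297 to 688). The block changed no call.

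Of 749 single-gene values compared under alternatives, which do not cover every gene in every fit, 725 had the direction reported. The other 24 did not, none of these 24 far from 0. For R55 against vehicle, without the contralateral library of mouse J, Scn1a had -0.01 and Scn4b -0.003. Over omitted mice Scn4b ran from -0.074 to 0.464 and Scn2b from -0.047 to 0.024. For R33 against vehicle Scn2b had -0.008 with size factors, -0.025 without that library of mouse J and -0.028 to 0.043 over omitted mice. For R55 against R33 Scn2a had 0.007 with the label series as a covariate, 0.019 with the length trend removed, 0.02 without the injected libraries of mice L and N and -0.159 to 0.072 over omitted mice. In the same comparison Scn4b had 0.034 without those 2 libraries and -0.236 to 0.006 over omitted mice, Scn2b had -0.058 to 0.015 and Scn3b -0.369 to 0.01. Signs on the injected side alone were less steady. For R55 against vehicle there, 7 of the 7 genes were negative with all libraries and 4 without mouse L. For R33 against vehicle there, 6 were negative with all libraries and 3 without the R33 injected library of mouse AD. The causes were not tested. With 4 or 5 mice a group, the 95% intervals of the drug comparisons over both hemispheres reached log2 values of -1.14 for Scn3b and 1.03 for Scn4b. With the correlation within mice modelled they reached -1.22 and 1.16. In the fits on 1 hemisphere alone they reached -1.46 and 1.59. Scn3a, the scarcest of the 7, had 426 or more fragments in every library, and the part of depth in these intervals was not tested.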
